A study of Homo sapiens with 6 samples.

Results

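The planar cell polarity pathway, the non-canonical branch of WNT signalling, was followed through 10 listed genes of its PRICKLE, VANGL and receptor modules in K562 cells carrying an inducible ERG. Members were all probe sets whose platform annotation names exactly 1 gene, if that gene is PRICKLE1, PRICKLE2, PRICKLE3, PRICKLE4, VANGL1, VANGL2, ROR1, ROR2, DAAM1 or SCRIB. This gave 21 of 54613 probe sets, for 9 of the 10 genes. PRICKLE4 had no probe set of its own, since both probe sets that carry its symbol also carry that of TOMM6. The list was drawn up with the difference between the induced and non-induced arrays already known, chosen by the same log2 differences that are given below, which are therefore a description without a test.

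K562 is a human erythroleukemia line established from chronic myeloid leukemia. The 3 stable pTRE-ERG clones of this line, named CL4, CL9 and CL46, gave the RNA for 6 Affymetrix U133 Plus 2.0 arrays. From each clone 1 array came from cells given 1 µg/ml doxycycline (DOX) daily for 8 days, labelled here ERG-induced, and 1 from unstimulated cells, labelled non-induced. The 8 days are those of the labels and methods, while another place in the study gives a different length. All 6 arrays share the K562 background and the inducible construct, each line is 1 clone, and only the induced cultures received DOX, so the effects of DOX and of ERG cannot be told apart.

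Cells use this pathway to align themselves within the plane of a tissue and to move in a common direction. A secreted WNT ligand such as WNT11 or WNT5A binds a Frizzled receptor together with a co-receptor such as ROR1 or ROR2, and Dishevelled, DAAM1, RHOA and the ROCK kinases carry the signal to actin and myosin. VANGL proteins in the membrane and PRICKLE proteins in the cytoplasm form the complex that sits on the side of the cell opposite to Frizzled and Dishevelled, and SCRIB is a scaffold that binds VANGL. WNT11 is among the genes that the study followed, and the members were set beside it.

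The 5 promoter windows printed here are those of PRICKLE1 and PRICKLE2, which were higher in the induced array of every clone, and of DAAM1, which was lower in all 3 clones in 3 of its probe sets. PRICKLE3 and VANGL2 were also higher in every clone, and their windows were counted but are not printed. Each window is the 250 bases before an annotated start, from RefSeq on GRCh38.p14, read 5′ to 3′ on the strand of the gene. The capitals mark GGAA or its reverse complement TTCC, the core of the sequence that ETS proteins such as ERG bind.
PRICKLE1, chr12:42483616-42483865, minus strand: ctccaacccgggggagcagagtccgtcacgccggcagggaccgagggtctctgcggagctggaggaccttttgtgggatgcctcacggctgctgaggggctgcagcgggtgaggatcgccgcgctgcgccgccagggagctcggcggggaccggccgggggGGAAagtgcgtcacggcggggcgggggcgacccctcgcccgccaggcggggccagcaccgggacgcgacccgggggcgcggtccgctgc
PRICKLE2, chr3:64225467-64225716, minus strand: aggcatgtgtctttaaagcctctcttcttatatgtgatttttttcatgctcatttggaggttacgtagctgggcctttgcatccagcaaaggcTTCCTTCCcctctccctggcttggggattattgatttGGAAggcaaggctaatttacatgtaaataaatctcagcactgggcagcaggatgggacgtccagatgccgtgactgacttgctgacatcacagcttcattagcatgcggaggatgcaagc
PRICKLE2, chr3:64268174-64268423, minus strand: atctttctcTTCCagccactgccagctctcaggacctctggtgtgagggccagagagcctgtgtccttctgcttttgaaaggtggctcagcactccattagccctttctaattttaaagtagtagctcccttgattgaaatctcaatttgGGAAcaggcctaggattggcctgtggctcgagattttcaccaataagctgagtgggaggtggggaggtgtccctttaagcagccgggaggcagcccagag
DAAM1, chr14:59188417-59188666, plus strand: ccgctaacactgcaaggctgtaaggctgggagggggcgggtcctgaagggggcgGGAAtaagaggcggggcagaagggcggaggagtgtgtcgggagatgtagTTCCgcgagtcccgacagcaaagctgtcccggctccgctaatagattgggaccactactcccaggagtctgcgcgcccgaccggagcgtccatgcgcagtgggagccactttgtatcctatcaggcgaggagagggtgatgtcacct
DAAM1, chr14:59263191-59263440, plus strand: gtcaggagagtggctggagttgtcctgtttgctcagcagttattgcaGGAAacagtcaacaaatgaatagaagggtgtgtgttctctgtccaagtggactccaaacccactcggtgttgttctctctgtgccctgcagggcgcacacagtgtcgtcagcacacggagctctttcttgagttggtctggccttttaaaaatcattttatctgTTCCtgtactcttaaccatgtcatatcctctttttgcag
Windows were held for 9 of the 10 genes (13 windows), all but SCRIB. Searched on both strands, GGAA occurred 1 to 5 times in each of the 13, and 92.7% of the 35116 windows of all genes held it. The longer ETS motifs CCGGAA and CCGGAAGT, which contain GGAA, occurred in 0 of the 13 windows and in 14.5% and 3.42% of all windows. Presence or absence of these letters was a description of the windows and not of binding.

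Each deposited value is a linear ratio, the signal of a probe set divided by its median over the 6 arrays, so that 1 is the middle of the 6 arrays and brightness is not kept. Levels of different probe sets can therefore not be ranked, detection is unknown, and the labelled cell type cannot be read from marker levels. Differences are log2 values, the arrays labelled ERG-induced minus those labelled non-induced, with the standard error (SE) of limma over 3 arrays against 3. A call needed a change of at least 2-fold together with an unadjusted p under 0.05, the thresholds of the study. Fewer cells of a type and less RNA per cell cannot be told apart in these bulk samples.

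Across the series 11.0% of probe sets were called (2.82% toward higher and 8.16% toward lower). An adjusted p of 0.05 in limma was passed by 0 probe sets, and 7180 had an unadjusted p under 0.05. Of the calls, 74.3% were lower, against 67.4% with the arrays centred on their medians and 63.1% after quantile normalization. The median difference of all genes, -0.03, became 0.08 and 0.11 under them. ERG itself differed by -0.76 (SE 0.63) over 4 probe sets, a mean whose sign is opposite to the labels but which was not called. The sets ranged from -1.93 to 0.72, and 4 of 12 pairs of arrays of the same clone were higher in the induced array. Whether those probe sets lie within the ERG sequence that was introduced is unknown. They check no label, and the directions below are those of the labels. The ribosomal RNA controls were higher in the induced arrays by 0.59 to 1.21. Of the markers measured, in the mean per gene, 2 of 10 megakaryocyte genes were called higher (GP1BA by 2.38 and ITGB3 by 1.23). Of 8 erythroid genes 0 were called, and of 10 fibroblast genes 1 was called higher and 1 lower. Among the uncalled markers, ITGA2B had 3 of 4 probe sets called higher (1.36, 1.27 and 1.38). ALAS2 had 1 of 2 called lower (-1.17), and the fibroblast gene POSTN 1 of 4. The summed ratio of the megakaryocyte markers ran from 11.1 to 23.0 in the induced arrays and from 6.12 to 9.12 in the non-induced arrays. That of the fibroblast markers ran from 9.30 to 11.9 and from 8.82 to 12.1. The uncalled PPBP weighs on the megakaryocyte sum. Its log2 ratios were 3.59, -3.72 and 2.58 in the induced arrays of CL4, CL9 and CL46, and it differed by 1.96 (SE 2.08). No marker was at 0, and neither was any other probe set, so this says nothing about detection. The part of these shifts in the results below was not tested.

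Of the 21 member probe sets, 5 were called, where 11.0% of all probe sets were. Of these, 2 were higher and 3 lower, next to 2.82% and 8.16% of all. Groups did not overlap in 8 members (22.3% of all probe sets), 4 of them higher and 4 lower (7.14% and 15.1%). All 3 clones moved the same way in 14 members (40.8% of all probe sets), 10 toward higher and 4 toward lower (16.5% and 24.3%). The median member differed by 0.82, while the median of all probe sets was -0.09. These figures describe members chosen with the contrast known, and nothing is read from them. By role, every probe set of the PRICKLE and VANGL genes had a mean above 0, DAAM1 and ROR1 had probe sets on both sides, the ROR2 probe set lay below 0 and that of SCRIB near 0.

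**Figure D1:**
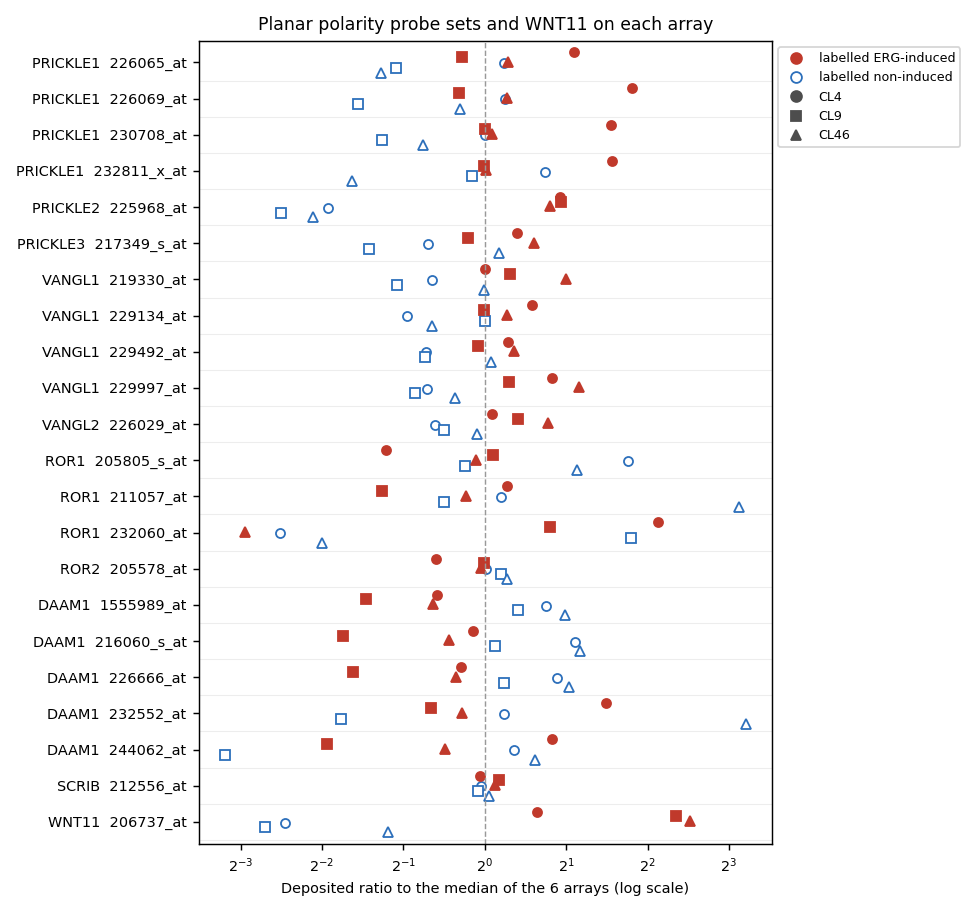
Deposited ratio (horizontal, log scale, 1 is the median of the 6 arrays) of the 21 member probe sets and WNT11 on each array. Filled red symbols are arrays labelled ERG-induced and open blue symbols those labelled non-induced, with 1 symbol shape per clone; for PRICKLE2 the red symbols lie between 1.74 and 1.91 and the blue ones between 0.177 and 0.263.

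PRICKLE2, a LIM domain protein of the VANGL complex, was the member with the largest difference. Its probe set 225968_at had ratios of 1.90, 1.91 and 1.74 in the ERG-induced arrays of CL4, CL9 and CL46. The non-induced arrays of the same clones gave 0.263, 0.177 and 0.232. The induced arrays were thus nearly equal, with 1.10-fold between the highest and the lowest, a spread that 97.8% of all probe sets reached or exceeded, and the groups lay far apart. The difference was 2.85, 3.44 and 2.90 in the 3 clones, on average 3.06 (SE 0.28), or 8.37-fold. Among all 54613 probe sets it was the 276th from the top, and in the mean per gene the 71st of 19775. Its call was kept under all the alternatives run, with differences between 2.88 and 3.18.

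WNT11, a secreted ligand of the pathway, is no member and was set beside them. Its probe set 206737_at had ratios of 1.56, 5.08 and 5.72 in the induced arrays of CL4, CL9 and CL46 against 0.183, 0.154 and 0.438 in the non-induced arrays. Each induced array exceeded every non-induced one, by a mean of 3.95 (SE 0.68), or 15.4-fold. The clone differences were 3.09, 5.04 and 3.71. Whereas the induced arrays of WNT11 spread over 3.66-fold, with CL4 far below the others, those of PRICKLE2 did not separate the clones. CL9 gave the largest difference for both genes, and CL4 the smallest. The same order of clones (CL9, CL46, CL4) was found in 6 of the 21 members and in 15.5% of all probe sets.

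The genes most like PRICKLE2 over the 6 arrays, by the Pearson correlation of gene log2 ratios, were FCER1G (0.997), PTPRD-AS1 (0.995), CETP (0.994), FAM230I (0.993) and TMPRSS6 (0.992). WNT11 stood 147th of the other genes, at 0.932. The 6 arrays fall into the 2 groups, and the value is given as a description, with no test. FCER1G is a signalling chain of Fc receptors and CETP a lipid transfer protein of plasma. Their differences, 5.93 and 5.22, were larger than that of PRICKLE2, and that of TMPRSS6, a membrane protease of iron control, was 1.06.

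PRICKLE1, the closest relative of PRICKLE2 on this list and also known to bind the repressor REST, was represented by 4 probe sets. All 12 pairs of arrays of the same clone were higher in the ERG-induced array. Its probe set 230708_at gave 2.92, 0.999 and 1.07 in the induced arrays of CL4, CL9 and CL46, and 1.00, 0.415 and 0.591 in the non-induced ones. The non-induced array of CL4 thus stood as high as the induced array of CL9, and the groups overlapped. CL4 was the highest clone in both conditions in all 4 probe sets.

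For PRICKLE1 the mean differences ranged from 0.87 to 1.22 with SE between 0.58 and 0.77, and 0 of the 4 probe sets were called. The differences in single clones ran from 0.15 to 1.64. With the clone as a block, a fit that takes out the level of each clone, 3 of the 4 were called higher, and the count of all called members was 9 (6 higher and 3 lower) in place of 5. The remaining probe set, 232811_x_at, carries the suffix that Affymetrix gives to sets with probes that may bind other transcripts. It had the lowest difference of the 4, 0.87, with 0.82, 0.15 and 1.64 in CL4, CL9 and CL46.

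PRICKLE3, another protein with a PET and LIM domains, had 1 probe set, 217349_s_at. Its ratios were 1.32, 0.868 and 1.52 in the induced arrays and 0.618, 0.372 and 1.13 in the non-induced arrays of CL4, CL9 and CL46. CL9 was the lowest clone in both conditions and CL46 the highest, and the groups overlapped. The difference was 1.09, 1.22 and 0.42, on average 0.91 (SE 0.50), short of the fold of 2. The probe sets that name both TOMM6 and PRICKLE4 differed by 0.09 (SE 0.25) and -0.06 (SE 0.28), with ratios between 0.767 and 1.14. TOMM6 is a subunit of the mitochondrial import pore, and the signals of the genes cannot be separated in them.

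**Figure D2:**
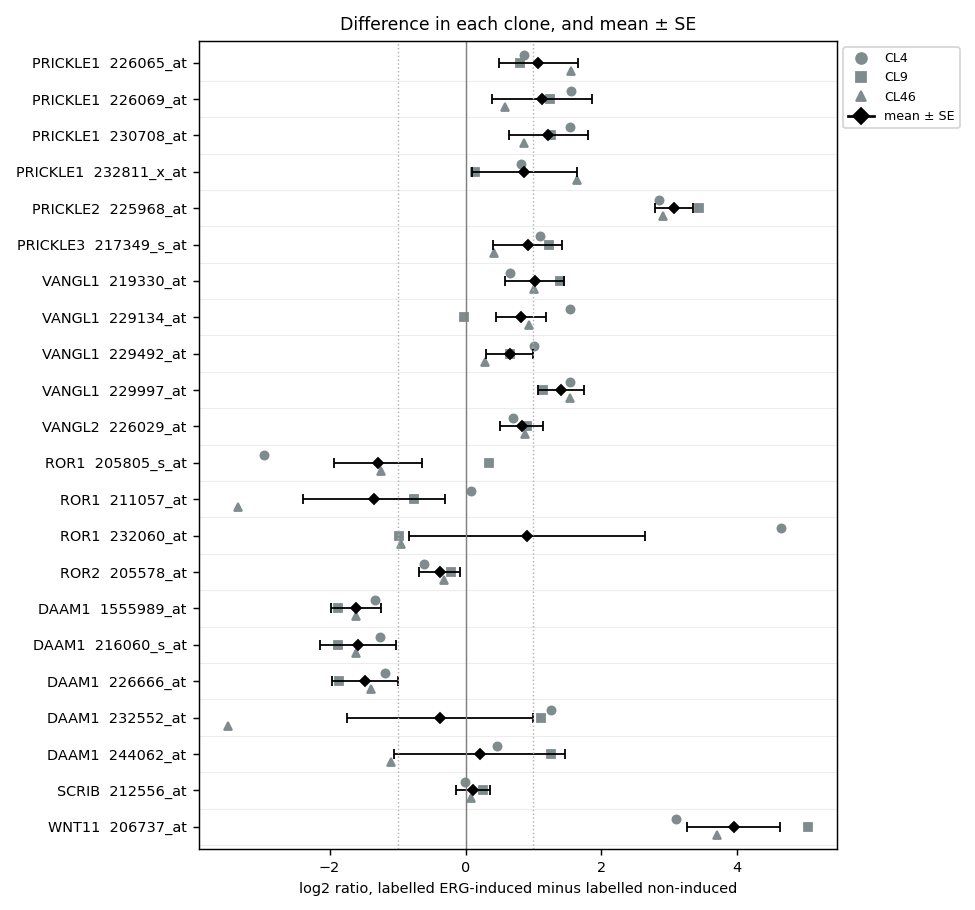
Difference of log2 ratios between the array labelled ERG-induced and that labelled non-induced (horizontal), of the same probe sets. Grey symbols are the clones, black diamonds the mean ± SE, and dotted lines a fold of 2; PRICKLE2 lies at 3.06 with its clones close together, and ROR1 232060_at has a clone at 4.65 while the others lie below 0.

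VANGL1, a membrane protein that recruits PRICKLE, had 4 probe sets, of which 1 was called higher. This set, 229997_at, had ratios of 1.77, 1.23 and 2.24 in the induced arrays of CL4, CL9 and CL46, and 0.613, 0.554 and 0.774 in the non-induced arrays. Groups did not overlap, and the difference was 1.40 (SE 0.34), or 2.65-fold, with 1.53, 1.15 and 1.53 in the clones. Without CL4 the call was lost, although the difference was 1.34. Groups were also apart in 219330_at, which differed by 1.02 (SE 0.43), but by little, since the lowest induced array had 1.01 and the highest non-induced array 0.995.

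The other VANGL1 sets, 229134_at and 229492_at, differed by 0.82 (SE 0.37) and 0.65 (SE 0.35), with overlapping groups. In 229134_at CL4 differed by 1.54 and CL46 by 0.93, while CL9 gave -0.02. This was the single pair of arrays, of 12 for VANGL1, that was not higher in the induced array. Averaged over its 4 probe sets, VANGL1 was higher by 1.18 (CL4), 0.80 (CL9) and 0.94 (CL46), with a mean of 0.97 (SE 0.29). That is 1.96-fold, just short of a call.

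VANGL2, the paralogue of VANGL1 that is best known from neural tube closure, had 1 probe set, 226029_at. The induced arrays had 1.07, 1.33 and 1.72 and the non-induced arrays 0.656, 0.709 and 0.933 in CL4, CL9 and CL46. Both groups kept the order CL4, CL9, CL46 and did not overlap. The difference, 0.70, 0.91 and 0.88, varied little between clones and averaged 0.83 (SE 0.32), a fold of 1.78. It was not called here and passed after quantile normalization, where it was 1.04.

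ROR1 and ROR2 are receptor tyrosine kinase-like proteins that bind WNT5A. ROR2, by its probe set 205578_at, had ratios of 0.658, 0.991 and 0.972 in the induced arrays and 1.01, 1.15 and 1.21 in the non-induced arrays of CL4, CL9 and CL46. It was lower in all 3 clones, and the groups were separated by a narrow gap. The difference averaged -0.38 (SE 0.30), with -0.62, -0.21 and -0.32 in the clones.

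The 3 probe sets of ROR1 did not run together. In the order CL4, CL9, CL46, set 205805_s_at differed by -2.97, 0.34 and -1.24, set 211057_at by 0.08, -0.76 and -3.35, and set 232060_at by 4.65, -0.99 and -0.94. Each set had a different clone or array far from the rest, such as the ratio of 8.69 in the non-induced array of CL46 for 211057_at. The non-induced arrays alone differed 4.0-fold, 12.3-fold and 19.8-fold between the highest and lowest clone in the 3 sets, where the median of all probe sets was 2.02-fold. Their means, -1.29 (SE 0.65), -1.34 (SE 1.04) and 0.91 (SE 1.74), were not called. The last became -0.97 when CL4 was left out. Without CL9, 205805_s_at was called lower, at -2.10.

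DAAM1, a formin that joins Dishevelled to RHOA and to actin filaments, was the member with calls toward lower. In 1555989_at the induced arrays of CL4, CL9 and CL46 had 0.668, 0.362 and 0.644, and the non-induced arrays 1.69, 1.33 and 1.98. In 216060_s_at the values were 0.906, 0.298 and 0.739 against 2.16, 1.09 and 2.25. In 226666_at they were 0.819, 0.325 and 0.781 against 1.85, 1.18 and 2.06. All the induced arrays lay below all the non-induced ones in these sets, and CL9 was the lowest clone in each group.

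These 3 probe sets differed by -1.61 (SE 0.37), -1.58 (SE 0.56) and -1.48 (SE 0.48), which is 3.06-fold, 2.99-fold and 2.79-fold lower. Clone by clone they nearly coincided, at -1.34, -1.25 and -1.18 in CL4, at -1.88, -1.87 and -1.86 in CL9 and at -1.62, -1.61 and -1.40 in CL46. The order of the clones, CL4, CL46 and CL9, was shared by 5 of the 21 members and by 23.0% of all probe sets, taken from the highest to the lowest difference. The call of 1555989_at was kept under all the alternatives run. That of 226666_at was lost without CL4 (-1.63) or CL46 (-1.52), and that of 216060_s_at without CL4 (-1.74) or CL46 (-1.56) or with no moderation of the variances (-1.58).

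The other DAAM1 sets behaved differently. Set 232552_at gave 1.26, 1.11 and -3.49 in CL4, CL9 and CL46, and 244062_at gave 0.47, 1.25 and -1.10, with means of -0.38 (SE 1.36) and 0.21 (SE 1.26). In the non-induced arrays they varied 31.5-fold and 14.0-fold between the clones, a spread reached by 1.86% and 9.90% of all probe sets. The called sets varied 1.48-fold to 2.06-fold there. The mean over all 5 sets, -0.97 (SE 0.72), was not called, so the gene value hides a difference that 3 sets share. Which transcripts each set binds was not tested.

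**Figure D3:**
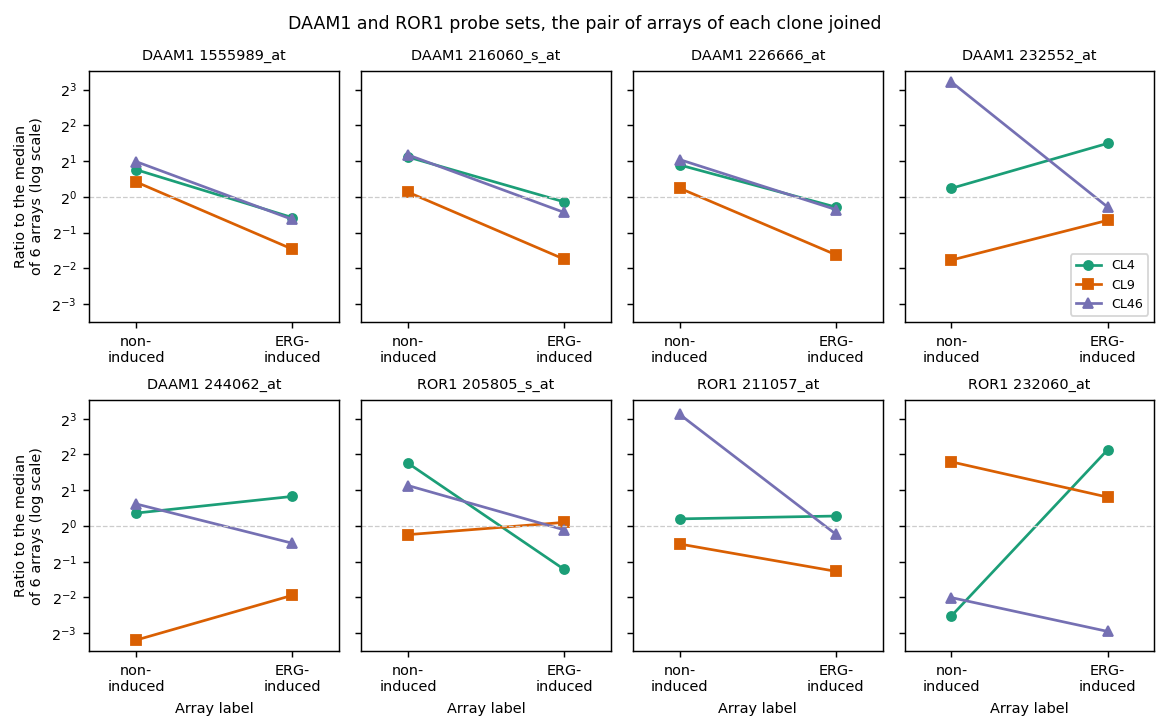
Ratio to the median of the 6 arrays (vertical, log scale) for each DAAM1 and ROR1 probe set, with a line for each clone from its array labelled non-induced to that labelled ERG-induced. In 1555989_at, 216060_s_at and 226666_at all 3 lines fall, while in each of the other sets at least 1 line runs the other way.

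SCRIB, the scaffold of apical and basal polarity, had 1 probe set, 212556_at. Its ratios lay between 0.959 and 1.13 in the induced arrays and between 0.945 and 1.03 in the non-induced arrays. They overlapped, and the difference was 0.11 (SE 0.25). Both groups were tight, with 1.18-fold and 1.10-fold between the highest and lowest clone, and no other member varied as little between the non-induced arrays.

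In the mean over the probe sets of each gene, 1 of the 9 member genes was called, PRICKLE2, where 9.44% of 19775 genes were called (3.12% higher and 6.32% lower). Groups did not overlap in 4 member genes (21.6% of all genes), 3 of them higher and 1 lower (7.98% and 13.6%). Gene differences in falling order were 3.06 for PRICKLE2, 1.07 (SE 0.60) for PRICKLE1, 0.97 for VANGL1, 0.91 for PRICKLE3, 0.83 for VANGL2, 0.11 for SCRIB, -0.38 for ROR2, -0.58 (SE 0.48) for ROR1 and -0.97 for DAAM1. From PRICKLE1 to VANGL2 neighbours in this order differed by less than their SE, and so did ROR2, ROR1 and DAAM1. With the clone as a block PRICKLE1 was called too. With each array centred VANGL1 was, and after quantile normalization VANGL1, PRICKLE3 and VANGL2 were. The single probe set of PRICKLE3 was not called after quantile normalization in the fit over probe sets. The signs of the member genes were the same under both scalings. Without CL46 the value of ROR1 turned to 0.06.

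The rest of the pathway was read from 6 lists of 63 genes, of which 1 was called higher and 6 lower, against 3.12% and 6.32% of all genes. The higher one is WNT11, whose rise was known when the members were set beside it, so nothing is read from that count. The median of the 63 genes was -0.05 and that of all genes -0.03. Some genes not called in the mean still had probe sets called lower, as 8.16% of all probe sets were. These were DLG1 (3 of 7), ERBIN (1 of 3), REST (1 of 3), FAT3 (1 of 3), MAPK8 (1 of 5) and SMURF1 (1 of 5). No uncalled gene of the 6 lists had a probe set called higher. An adjusted p of 0.05 in limma was passed by 0 of all genes, and 2544 had an unadjusted p under 0.05.

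Among 7 WNT ligands that can act in planar polarity, WNT11 was higher and WNT9B, a ligand of kidney tubule development, was lower. WNT9B had log2 ratios of -0.85, -2.98 and -0.77 in the induced arrays and 0.94, 1.00 and 0.50 in the non-induced arrays of CL4, CL9 and CL46. It fell 5.08-fold (difference -2.34, SE 0.65, adjusted p = 0.265 in limma), and the call held with each clone left out, at -1.53 without CL9. WNT7B differed by 0.79 (SE 0.82). WNT5A, the usual ligand of ROR1 and ROR2, differed by 0.16 (SE 0.30) and was chosen for naming with its value known. Its 2 probe sets ran opposite ways, at -1.02 (SE 1.20) and 1.33 (SE 1.22), a spread that the gene value hides. The list median was also 0.16.

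Of 15 other core genes, among them the CELSR cadherins, the receptors FZD3 and FZD6 and the Dishevelled proteins, 0 were called higher and 1 lower. SMURF2, a ubiquitin ligase that degrades PRICKLE1, fell 2.33-fold (difference -1.22, SE 0.42, adjusted p = 0.333 in limma). Of its 4 probe sets 1 was called lower, and the call of the gene was lost without CL4 (-1.31) or CL9 (-0.98). SEC24B, the coat protein that loads VANGL2 for export, differed by -0.78 (SE 0.26), and the co-receptor PTK7 by 0.52 (SE 0.28). The median of the list was -0.01.

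Of 13 effectors, 0 were called higher and 2 lower, both of them the kinases that make actomyosin contract. ROCK1 had log2 ratios of -0.26, -1.20 and -0.65 in the induced arrays and 0.98, 0.56 and 0.49 in the non-induced arrays of CL4, CL9 and CL46. It was 2.60-fold lower (difference -1.38, SE 0.34, adjusted p = 0.235 in limma), 3 of its 5 probe sets were called lower, and its call held with each clone left out. ROCK2 was 3.86-fold lower (difference -1.95, SE 0.70, adjusted p = 0.343 in limma), with -0.91, -3.39 and -1.54 in the clones, and 1 of its 2 probe sets was called lower. It lost its call without CL4 (-2.47) or CL46 (-2.15). Without CL9 the call held, at a smaller difference of -1.23. INTU, a ciliary effector, differed by -0.95 (SE 0.42), with 0.02, -1.62 and -1.24 in CL4, CL9 and CL46. The list median was -0.25.

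Of 15 genes of the Scribble module, LIN7C, a small PDZ adaptor, fell 2.04-fold (difference -1.03, SE 0.28, adjusted p = 0.262 in limma). It lost the call without CL9 (-0.93) or CL46 (-0.90), with each array centred (-0.92) and after quantile normalization (-0.83). GIT1, an adaptor of ARHGEF7, differed by -0.99 (SE 0.37), with -0.003, -1.67 and -1.29 in CL4, CL9 and CL46. ERBIN, a relative of SCRIB, differed by -0.72 (SE 0.28), and neither gene was called. The list median was 0.03.

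Of 6 partners of PRICKLE, CLASP2, which steadies microtubule ends, fell 2.24-fold (difference -1.16, SE 0.33, adjusted p = 0.278 in limma), and 4 of its 6 probe sets were called lower. Without CL9 (-0.86) or CL46 (-1.17), or after quantile normalization (-0.99), it was not called. The kinases TNIK and MAP4K4 differed by -0.81 (SE 0.37) and -0.48 (SE 0.25), and the list median was -0.43. Of 7 genes of the Fat and Dachsous system, a second polarity system of giant cadherins, 0 were called and the median was 0.30. FAT1 differed by -0.95 (SE 0.35), FAT4 by 0.55 (SE 0.43) and FAT2 by 0.90 (SE 0.74).

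**Figure D4:**
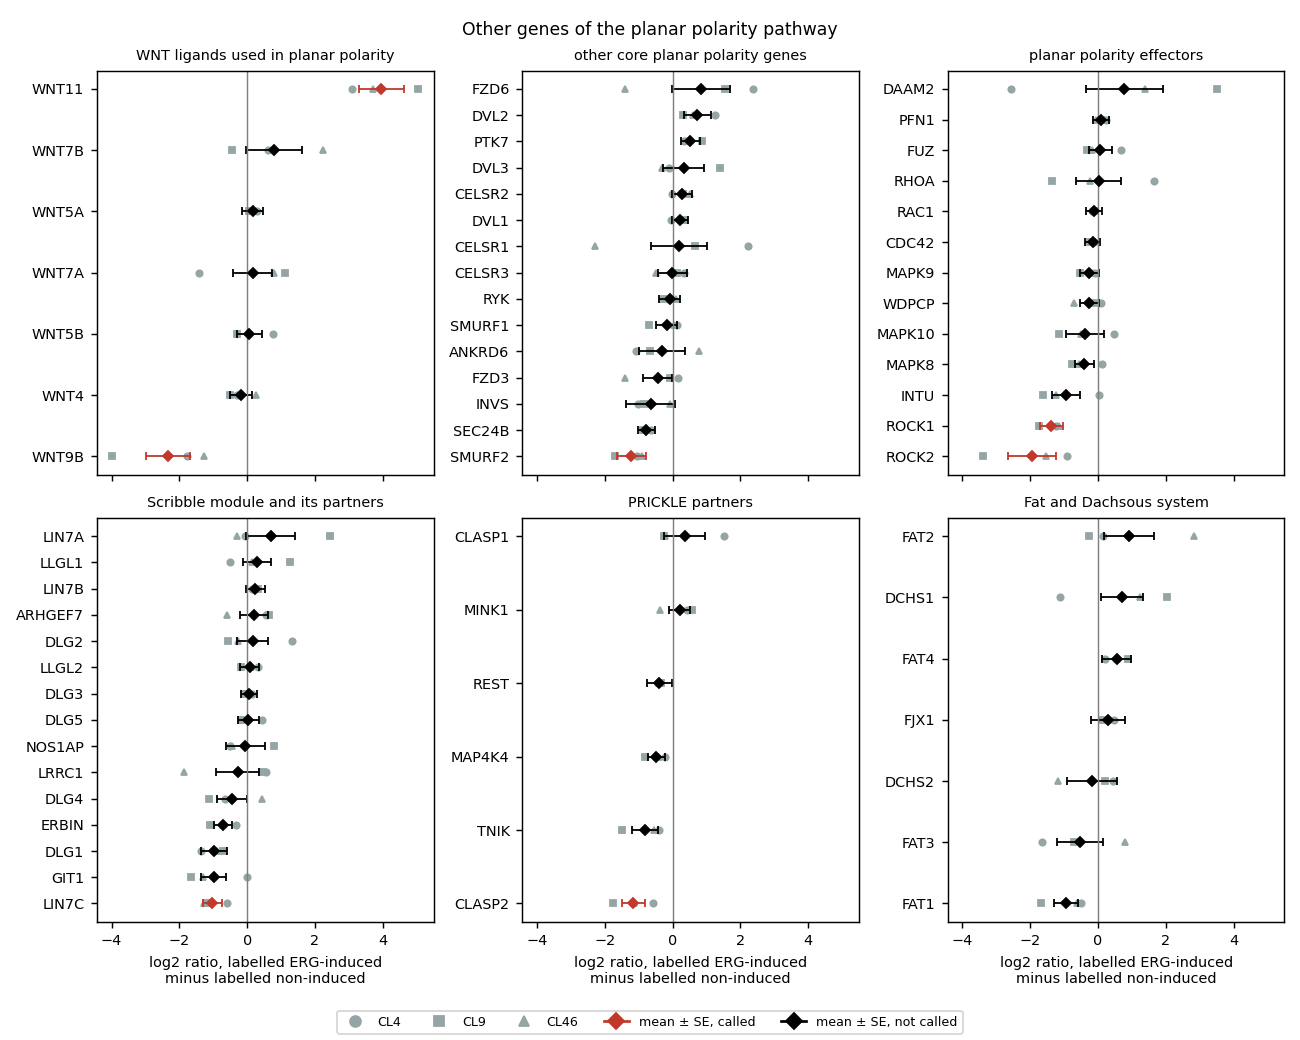
Difference of log2 ratios between the array labelled ERG-induced and that labelled non-induced (horizontal), of the 63 genes of 6 pathway lists, averaged over probe sets. Grey symbols are the clones and diamonds the mean ± SE, red where called; WNT11 at 3.95 is the single red diamond above 0, and WNT9B, SMURF2, ROCK1, ROCK2, LIN7C and CLASP2 are the red ones below it.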

How the data were processed

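The deposited values are linear ratios made by the authors with Gene Spring from Affymetrix U133 Plus 2.0 arrays of 3 clones in 2 conditions. They are relative to the median of the probe set, which was 1 within 1e-05 in 50737 of 54675 probe sets, the 21 members included, and lower in 3938. The sources used here do not give the background correction or array scaling. The number of arrays limits the precision. The p-values of the main fit measure the spread of the arrays within each group, which includes the level of each clone. They do not measure how far the difference varied between clones.

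After removal of 62 control probe sets, log2 of each ratio was taken, without a floor. Of 54613 probe sets, 41091 carried 1 gene symbol, 1801 several and 11721 none. Those with 1 symbol were averaged into 19775 genes, with symbols updated by gene ID for 41037 of them. The groups were tested by limma 3.58.1 under R 4.3.3 (lmFit and eBayes without a trend, two-sided, Benjamini-Hochberg over all features), tested on simulated data.

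The members and the gene lists were chosen with earlier results of these data known. Named were the members, WNT11, ERG, the 3 genes of the smallest p in each list and the 5 genes most like PRICKLE2. WNT5A, DLG1, REST, FAT3, MAPK8, SMURF1 and some cell type markers were named with their values known. The clone pairs the arrays: deviations of arrays of the same clone from their group means correlated by 0.03 in CL4, 0.02 in CL9 and 0.03 in CL46. Alternatives were the clone as a block, centring, quantile normalization, no moderation, leaving out probe sets with a median below 1, other thresholds, the probe set of the highest mean per gene and leaving out each clone.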

Additional observations from a re-analysis of the deposited data

How the results depend on the processing

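With no moderation of the variances, 4 of the 5 called members were again called. Leaving out probe sets with a median below 1 removed no member, so it says little that all 5 were called there. PRICKLE2 and DAAM1 1555989_at were called under every alternative run. Member probe sets called numbered 9 with the clone as a replicate block, 8 after quantile normalization, 9 with a fold of 2 and the same direction in all 3 clones but no p, and 2 to 7 when a clone was left out (2 without CL4, 7 without CL9 and 3 without CL46). Member genes called, 1 in the main comparison, numbered 2 with the clone as a block, 2 with each array centred and 4 after quantile normalization. They numbered 2 by a fold of 2 and the same direction without a p, 3 at a fold of 1.5 and 1 to 2 when a clone was left out. With the probe set of the highest mean ratio per gene they numbered 2, PRICKLE2 and VANGL1. This choice takes sets with high ratios on some arrays, not bright sets. For VANGL1 it took 229997_at, its called set, so this count is no independent check. After quantile normalization 4 genes of all passed an adjusted p of 0.05, PRICKLE2 among them. By that rule of fold and direction without a p, 10480 probe sets and 2896 genes were called in all.

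The calls in the other lists were few and moved with the settings. Other core genes called were 0 with no moderation, 2 at a fold of 1.5 and 0 to 1 when a clone was left out. Effectors called were 1 with no moderation and 1 to 3 when a clone was left out. Scribble genes called were 0 with each array centred, 0 after quantile normalization, 4 at a fold of 1.5 and 0 to 2 when a clone was left out. PRICKLE partners called were 0 after quantile normalization and 0 to 1 when a clone was left out, and Fat and Dachsous genes 1 at a fold of 1.5 and 0 to 1 when a clone was left out. The clone block changed no other call among the named genes of these lists. The cause of these changes was not tested. Signal over background is unknown, so members near their background cannot be told from members well above it.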
